A study of Homo sapiens with 16 samples.

Results

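The 10 genes described here encode the TEAD transcription factors, their coactivators and a set of genes that these factors are known to switch on. They were chosen by name from the 34228 genes in the count table, with earlier results of these data known. They are TEAD1, TEAD2, TEAD3 and TEAD4, the coactivators YAP1 and WWTR1 (which encodes TAZ), and the target genes CCN1, CCN2, AMOTL2 and LATS2. All 10 were present in the table. RNA was sequenced from 2 human melanoma cell lines with acquired resistance to a BRAF inhibitor (BRAFi-R), 451Lu-R, of the MITF hi/AXL lo phenotype, and 1205Lu-R, of the MITF lo/AXL hi phenotype, after 24 hours with 2.5 µM corin or with the solvent DMSO. Corin is a hybrid molecule that inhibits both LSD1 and HDAC1 in the CoREST corepressor complex. Each of the 4 groups held 2 libraries, which gave 8 libraries with counts. Both lines had been made resistant by growth in rising amounts of PLX4032 (vemurafenib) and were maintained in that drug, so this history is shared by the DMSO and the corin groups, while PLX4032 was not part of the 24-hour treatment in the 8 libraries. Each phenotype is represented by 1 cell line, so a difference between lines and a difference between phenotypes cannot be told apart. The sources do not state whether the 2 libraries of a group came from separate cultures, and all p-values therefore measure the spread between these libraries, which may be technical.

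In the annotation of GENCODE release 44 (GRCh38), the TEAD genes lie at chr11:12674421-12944737 (TEAD1), chr19:49340595-49362457 (TEAD2), chr6:35473597-35497079 (TEAD3) and chr12:2959330-3040676 (TEAD4). The coactivator genes lie at chr11:102110447-102233424 (YAP1) and chr3:149517235-149736714 (WWTR1). The targets lie at chr1:85580761-85584589 (CCN1), chr6:131948176-131951372 (CCN2), chr3:134355347-134375479 (AMOTL2) and chr13:20973036-21061586 (LATS2), and all 10 genes are protein coding.

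In the Hippo pathway, the kinases STK3 and STK4 with SAV1 activate LATS1 and LATS2, which with MOB1 phosphorylate YAP and TAZ and keep them out of the nucleus. When the kinases are inactive, YAP and TAZ enter the nucleus and bind TEAD proteins, which hold the DNA contact but activate transcription poorly without a coactivator. In melanoma, TEAD and YAP activity is known as a feature of the undifferentiated, invasive state. LATS2 and AMOTL2 are at the same time targets and restraints of YAP, and so form a negative feedback.

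The TEAD DNA motif is shown first, because it is the sequence through which these proteins reach their targets. Of the 10 genes, 7 had an entry among the RefSeq promoters of GRCh38.p14 (TEAD1, TEAD4 and CCN1 had none). The letters CATTCC, or GGAATG on the other strand, were searched in the 250 bases before each annotated start. They occurred in 3 of the 7 genes, in 3 of their 10 entries, and in 11.9% of all 35116 promoters. The 3 entries with a match are printed 5′ to 3′ on the strand of the gene, with the motif in capitals.
CCN2, chr6:131951373-131951622, minus strand: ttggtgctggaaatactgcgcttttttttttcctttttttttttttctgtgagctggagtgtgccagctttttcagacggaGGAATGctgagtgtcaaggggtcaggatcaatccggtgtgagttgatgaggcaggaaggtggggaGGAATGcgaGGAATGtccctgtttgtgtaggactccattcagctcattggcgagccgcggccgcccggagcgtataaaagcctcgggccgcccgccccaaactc
YAP1, chr11:102110197-102110446, plus strand: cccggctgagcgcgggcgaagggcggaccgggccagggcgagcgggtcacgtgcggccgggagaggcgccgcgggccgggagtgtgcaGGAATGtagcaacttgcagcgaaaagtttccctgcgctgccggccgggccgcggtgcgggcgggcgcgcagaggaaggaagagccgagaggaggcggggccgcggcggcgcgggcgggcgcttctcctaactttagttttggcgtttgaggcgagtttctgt
AMOTL2, the second of its entries, chr3:134374448-134374697, minus strand: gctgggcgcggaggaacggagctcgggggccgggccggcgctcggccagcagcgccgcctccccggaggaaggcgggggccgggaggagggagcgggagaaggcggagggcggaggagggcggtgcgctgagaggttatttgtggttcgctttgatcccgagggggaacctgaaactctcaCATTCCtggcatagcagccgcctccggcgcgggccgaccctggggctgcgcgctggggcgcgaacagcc
The CCN2 window held 3 copies of GGAATG, at 169 to 164, 104 to 99 and 95 to 90 bases before the start, and the last 2 of these were separated by 3 bases. Windows with 3 or more copies made up 0.0826% of all promoters, or 29 windows. YAP1 held 1 copy at 162 to 157 bases and AMOTL2 held 1 copy at 69 to 64 bases before the start. The windows of TEAD2, TEAD3, WWTR1 and LATS2 held none of these letters, and the AP-1 motif TGANTCA, which lay in 6.57% of all promoters, was in none of the members' windows. The 2 TEAD spellings are reverse complements of each other, and no match overlapped another. A match is a description of the letters, and binding was not measured.

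The libraries held between 9516687 and 11797788 counts, and levels are given as CPM, the count scaled to a library of 1000000 counts. The 2 replicates of each group differed somewhat more than counting noise, with a chi-square per degree of freedom over genes of 1.34 to 1.40. The lines were first checked against markers. The 7 melanocytic markers summed to between 13239 and 13311 CPM in 451Lu-R with DMSO, and to between 7.25 and 8.38 CPM in 1205Lu-R with DMSO, where SOX10, TYR and TYRP1 had no count, MITF was at 8.04 and 6.31 CPM and made up most of the sum, and PMEL, MLANA and DCT were below 1 CPM. The 5 markers of undifferentiated or invasive melanoma (AXL, NGFR, EGFR, WNT5A and SOX9) all rose with corin in 451Lu-R, without overlap between the groups. Mean levels there went from 3.63 to 15.4 CPM for EGFR, from 3.24 to 5.55 CPM for WNT5A and from 0 to 8.1 CPM for SOX9. In 1205Lu-R the markers did not move as a set. Their sum went from between 8.02 and 8.07 CPM to between 379 and 387 CPM in 451Lu-R, and from between 1563 and 1572 CPM to between 1119 and 1123 CPM in 1205Lu-R. NGFR alone held 355 and 348 CPM of the sum with corin in 451Lu-R, and in 1205Lu-R it went from 5.60 and 6.12 CPM to 206 and 199 CPM, while WNT5A went from 199.6 and 188 CPM to 37.2 and 37.9 CPM and SOX9 lay between 307 and 315 CPM throughout. With corin the melanocytic sum was between 11399 and 11441 CPM in 451Lu-R and between 16.7 and 19.1 CPM in 1205Lu-R. PMEL made up most of the 451Lu-R sum (mean 8437 CPM with DMSO and 7226 CPM with corin), which hid opposite changes. Mean levels in 451Lu-R went from 793 to 287 CPM for MITF, from 758 to 234 CPM for SOX10 and from 1161 to 668 CPM for MLANA. TYR and TYRP1 were also lower there with corin, whereas DCT went from 1668 to 2675 CPM. Keratinocyte markers (3 genes) went from between 0.275 and 0.414 CPM to between 7.10 and 8.14 CPM with corin in 451Lu-R, and from 0 to between 0.360 and 0.736 CPM in 1205Lu-R, where KRT5 and KRT14 stayed at 0. The sum of 3 endothelial markers went from between 1.35 and 1.47 CPM to between 8.39 and 9.10 CPM in 451Lu-R. In 1205Lu-R it went from between 10.7 and 10.8 CPM to between 24.0 and 27.6 CPM. These rises were mostly VWF, at a mean of 1.36 and then 8.32 CPM in 451Lu-R, and 1.33 and then 18.4 CPM in 1205Lu-R. PECAM1 had no count in 451Lu-R and went from a mean of 9.44 to 7.34 CPM in 1205Lu-R, and CDH5 was below 1 CPM throughout. The 2 leukocyte markers summed to at most 1.61 CPM in any library. The part of these marker levels in the results below was not tested. In bulk RNA, fewer cells with a transcript and less transcript per cell cannot be told apart.

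**Figure D1:**
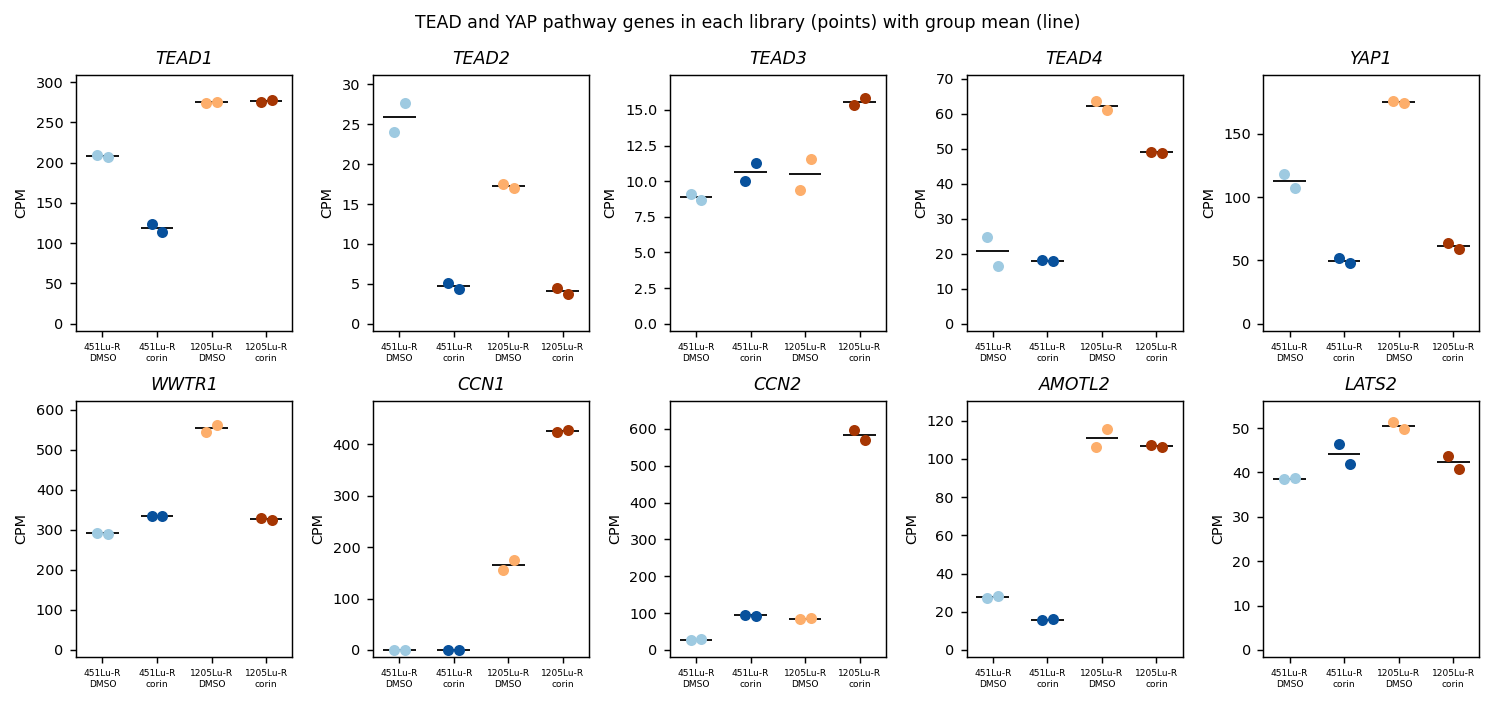
Level of each member in CPM (vertical axis, linear from 0) in each of the 8 libraries (points), by cell line and treatment, with the mean of the 2 libraries as a line. The CCN2 points with corin lie above those with DMSO in both lines, the TEAD2 and YAP1 points lie below, and CCN1 sits at or near 0 in all 4 libraries of 451Lu-R.

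With corin, TEAD2 and YAP1 fell and CCN2 rose in both cell lines, while TEAD1 fell in 451Lu-R and WWTR1 took opposite directions in the lines. In 451Lu-R, 9 of the 10 members had enough counts for the test. Of these, 4 rose (TEAD3, WWTR1, CCN2 and LATS2), 4 fell (TEAD1, TEAD2, YAP1 and AMOTL2) and TEAD4 did not pass. Across all genes tested in this line 79.9% passed, 41.3% upward and 38.6% downward, so passing the test by itself set few genes apart. In 1205Lu-R all 10 members were tested, 3 rose (TEAD3, CCN1 and CCN2), 6 fell (TEAD2, TEAD4, YAP1, WWTR1, AMOTL2 and LATS2) and TEAD1 did not pass, against 78.3% of all genes (40.4% upward and 37.8% downward). With a fold of at least 2 added to the rule, 451Lu-R kept the rise of CCN2 and the fall of TEAD2 and YAP1 (background 22.2% up and 13.3% down), and 1205Lu-R kept the rise of CCN1 and CCN2 and the fall of TEAD2 and YAP1 (background 22.0% up and 9.8% down). The median log2 fold change of the members was -0.12 in 451Lu-R and -0.23 in 1205Lu-R, beside 0.03 for all genes in either line. Tests are edgeR quasi-likelihood tests with Benjamini-Hochberg adjustment over all genes tested, and a gene passed at an adjusted p under 0.05.

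TEAD1 encodes a TEAD factor that is expressed in most adult tissues. In 451Lu-R it was at 209 and 207 CPM with DMSO and at 124 and 113 CPM with corin. The groups did not overlap, and TEAD1 fell 1.63-fold (log2 fold change -0.71, SE 0.04, adjusted p = 1.96e-12). In 1205Lu-R it was at 274 and 276 CPM with DMSO and at 276 and 278 CPM with corin. The 2 groups of 1205Lu-R overlapped, and after scaling by the library factors of the test the log2 difference was -0.06 (95% interval -0.13 to 0.00, adjusted p = 0.0680). That difference passed without the filter on low counts (adjusted p = 0.0022) and with all 8 libraries in 1 fit (0.0404), and turned to 0.01 when scaled by library size alone.

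TEAD2, which is best known from embryonic tissues, had the largest fall among the members. It was at 24.0 and 27.7 CPM with DMSO and at 5.09 and 4.40 CPM with corin in 451Lu-R. The 1205Lu-R libraries had TEAD2 at 17.5 and 17.0 CPM with DMSO and at 4.41 and 3.69 CPM with corin. Every corin library lay far under every DMSO library, so that the fall was 5.04-fold in 451Lu-R (log2 fold change -2.33, SE 0.14, adjusted p = 4.75e-12) and 4.51-fold in 1205Lu-R (-2.17, SE 0.15, adjusted p = 1.51e-11). The difference between the lines in this response was 0.12 on the log2 scale (95% interval -0.35 to 0.60, adjusted p = 0.719).

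TEAD3, best known from the placenta, had the lowest level per kb of exon of the 4 factors in both lines with DMSO (2.91 and 3.44 CPM per kb). For 451Lu-R its levels were 9.08 and 8.69 CPM with DMSO and 10.0 and 11.3 CPM with corin. The DMSO libraries of 1205Lu-R were at 9.40 and 11.6 CPM and its corin libraries at 15.3 and 15.8 CPM. The corin libraries were the higher ones in both lines, by 1.28-fold in 451Lu-R (log2 fold change 0.35, SE 0.14, adjusted p = 0.0291) and by 1.42-fold in 1205Lu-R (0.50, SE 0.13, adjusted p = 0.0014). The call in 451Lu-R did not hold with DESeq2 (adjusted p = 0.219), with scaling by library size alone (0.107), without the filter (0.0545), or without DMSO replicate 1 (0.0566), DMSO replicate 2 (0.101) or corin replicate 2 (0.158).

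TEAD4 was at 24.8 and 16.5 CPM with DMSO and at 18.1 and 17.8 CPM with corin in 451Lu-R. The 2 DMSO libraries lay on either side of the corin libraries, and the log2 difference was -0.12 (95% interval -0.40 to 0.17, adjusted p = 0.438). Its direction rested on a single DMSO library, since it was 0.21 without DMSO replicate 1 (adjusted p = 0.137) and -0.37 without DMSO replicate 2 (adjusted p = 0.0023). In 1205Lu-R, TEAD4 was at 63.5 and 61.0 CPM with DMSO and at 49.1 and 48.9 CPM with corin. Those groups did not overlap, and TEAD4 fell 1.34-fold (log2 fold change -0.42, SE 0.06, adjusted p = 8.20e-07).

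To compare the factors with each other, levels were divided by the length of their merged exons (CPM per kb). That length covers all annotated exons (10.7 kb for TEAD1 and 2.275 kb for TEAD4), and the transcripts in use were not determined. Shares, orders and ratios between genes here and below depend on it, and the SDs do not cover this. In CPM, TEAD1 lay above TEAD4 in every library. In 451Lu-R with DMSO, TEAD1 made up 48.5% ± 1.98 (SD, n = 2) of the summed TEAD level per kb, TEAD4 22.5% ± 5.35, TEAD2 21.7% ± 3.24 and TEAD3 7.27% ± 0.128. The shares of TEAD4 and TEAD2 lay within their spread of each other. With corin the share of TEAD2 was 6.61% ± 0.497 and that of TEAD4 was 32.8% ± 0.562, while TEAD1 stayed near its former share at 46.1% ± 1.71. In 1205Lu-R with DMSO, TEAD4 (43.9% ± 1.04) and TEAD1 (41.3% ± 0.341) together made up most of the TEAD level. With corin TEAD1 was the larger of this pair, at 48.0% ± 0.281 against 39.9% ± 0.163 for TEAD4, and TEAD2 was at 2.52% ± 0.321, down from 9.31% ± 0.141. The summed TEAD level was 40.1 ± 1.94 CPM per kb in 451Lu-R with DMSO and 24.1 ± 0.657 with corin, and 62.3 ± 0.302 with DMSO and 53.9 ± 0.0565 with corin in 1205Lu-R. No test was made of these shares and sums.

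**Figure D2:**
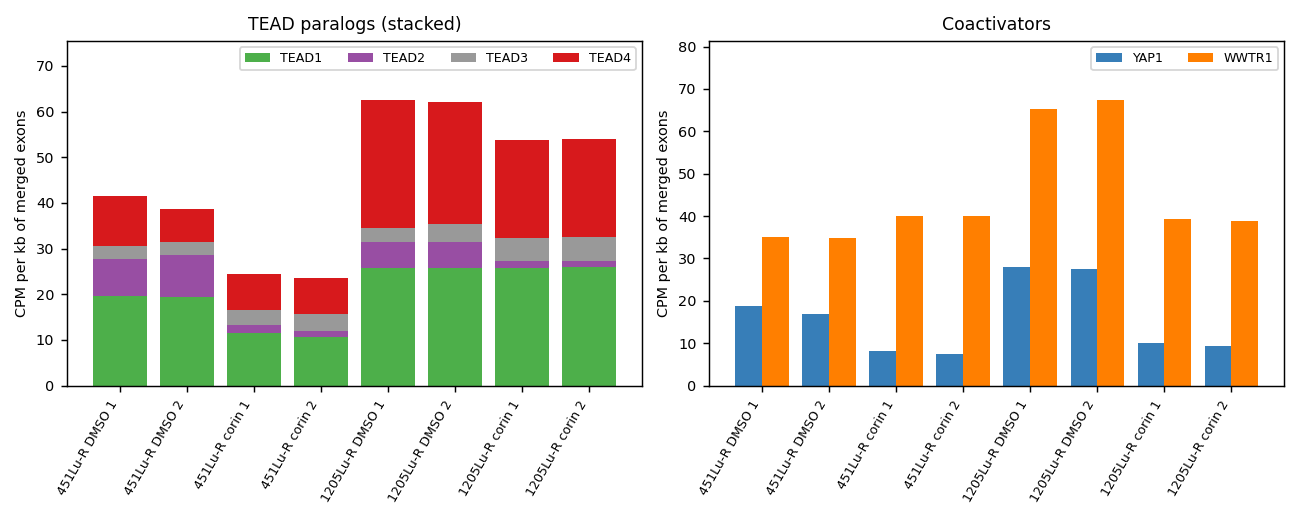
Left, level of TEAD1 to TEAD4 stacked, in CPM per kb of merged exons, in each of the 8 libraries, and right, YAP1 and WWTR1 on the same scale; bars start at 0 and each is 1 library. The stacked TEAD level in 451Lu-R is about 40.1 with DMSO and 24.1 with corin on average, and WWTR1 exceeds YAP1 in every library.

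The coactivator YAP1 fell in both lines. It was at 118 and 107 CPM with DMSO and at 51.9 and 47.8 CPM with corin in 451Lu-R. The 1205Lu-R levels of YAP1 were 176 and 174 CPM with DMSO and 63.9 and 58.8 CPM with corin. The groups were well separated, with a 2.11-fold fall in 451Lu-R (log2 fold change -1.08, SE 0.06, adjusted p = 1.29e-12) and a 3.01-fold fall in 1205Lu-R (-1.59, SE 0.04, adjusted p = 1.18e-18). A gene without a name lies on the other strand over YAP1 and had between 1 and 7 counts a library.

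WWTR1, whose product TAZ is the paralog of YAP, took opposite directions. In 451Lu-R it was at 293 and 291 CPM with DMSO and at 334 and 335 CPM with corin, a 1.23-fold rise (log2 fold change 0.30, SE 0.03, adjusted p = 2.39e-09). In 1205Lu-R it was at 546 and 563 CPM with DMSO and at 329 and 324 CPM with corin, a 1.79-fold fall (-0.84, SE 0.03, adjusted p = 1.11e-16). All 4 corin libraries lay within 324 to 335 CPM. WWTR1 exceeded YAP1 per kb in all 8 libraries, and the ratio of WWTR1 to YAP1 was 1.96 ± 0.126 (SD, n = 2) in 451Lu-R with DMSO and 5.08 ± 0.305 with corin, and 2.39 ± 0.0672 with DMSO and 4.03 ± 0.192 with corin in 1205Lu-R. The sum of both coactivators was 52.8 ± 1.39 and 47.9 ± 0.380 CPM per kb in 451Lu-R with DMSO and corin, and 94.1 ± 1.28 and 48.8 ± 1.02 in 1205Lu-R.

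CCN2 encodes connective tissue growth factor, a secreted matricellular protein and one of the most used readouts of YAP and TEAD activity. It was at 26.1 and 28.4 CPM with DMSO and at 95 and 93.2 CPM with corin in 451Lu-R. The other line had CCN2 at 83.0 and 87.1 CPM with DMSO and at 597 and 571 CPM with corin. CCN2 rose 3.71-fold in 451Lu-R (log2 fold change 1.89, SE 0.06, adjusted p = 6.84e-16) and 6.53-fold in 1205Lu-R (2.71, SE 0.04, adjusted p = 1.59e-23), which was the largest rise among the members in either line, in the same libraries in which YAP1 fell. LINC01013, on the opposite strand over CCN2, had between 0 and 14 counts a library.

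CCN1, the related gene for the matricellular protein CYR61, was counted almost entirely in 1205Lu-R. The DMSO libraries of 451Lu-R held no CCN1 count and its corin libraries held 2 and 0, which was too few to test. A count of 0 allows up to 3 counts a library, or 0.293 CPM on average for the DMSO libraries of this line. In 1205Lu-R, CCN1 was at 155 and 174 CPM with DMSO and at 425 and 427 CPM with corin. It rose 2.46-fold there (log2 fold change 1.30, SE 0.04, adjusted p = 4.95e-18), with no overlap between the groups.

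AMOTL2 encodes an angiomotin family protein that binds YAP and holds it in the cytoplasm. It was at 27.0 and 28.0 CPM with DMSO and at 15.4 and 16.1 CPM with corin in 451Lu-R, and fell 1.63-fold (log2 fold change -0.70, SE 0.09, adjusted p = 8.89e-07). In 1205Lu-R it was at 106 and 116 CPM with DMSO and at 107 and 106 CPM with corin. The groups overlapped there, and the fall of 1.09-fold passed narrowly (log2 fold change -0.13, SE 0.04, adjusted p = 0.0145). It did not pass with DESeq2 (adjusted p = 0.0592), with scaling by library size alone (0.305) or without DMSO replicate 2 (0.145).

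LATS2 encodes the kinase that phosphorylates YAP and TAZ. In 451Lu-R it was at 38.5 and 38.7 CPM with DMSO and at 46.4 and 41.9 CPM with corin, a 1.23-fold rise (log2 fold change 0.30, SE 0.07, adjusted p = 0.0011). In 1205Lu-R it was at 51.3 and 49.7 CPM with DMSO and at 43.7 and 40.8 CPM with corin, a 1.26-fold fall (-0.33, SE 0.07, adjusted p = 8.02e-05). The groups did not overlap in either line. The corin libraries of both lines lay between 40.8 and 46.4 CPM.

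**Figure D3:**
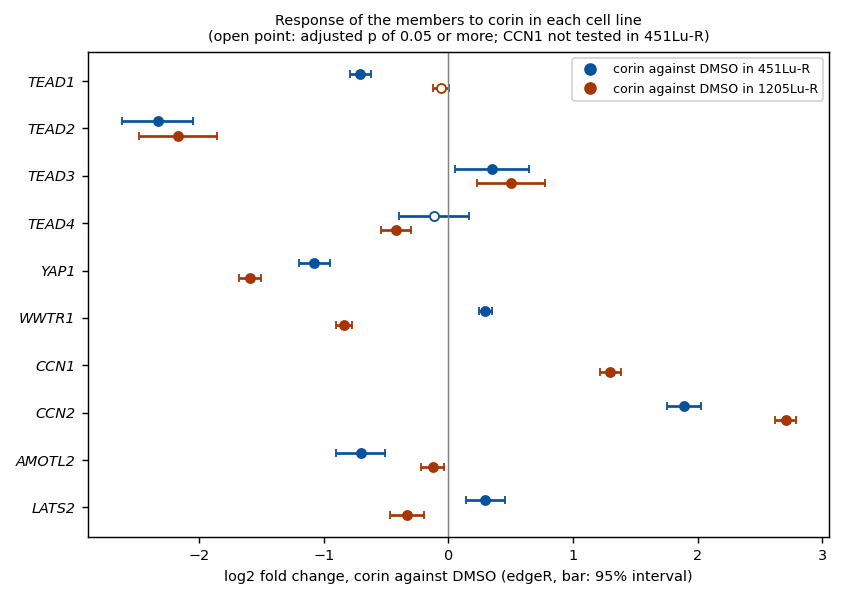
Log2 fold change with corin against DMSO for each member (horizontal axis, points) in each cell line (colours), with 95% intervals from the edgeR fit as bars; open points did not pass an adjusted p of 0.05, and CCN1 was not tested in 451Lu-R. TEAD2 and YAP1 lie to the left of 0 and CCN2 to the right in both lines, while WWTR1 and LATS2 lie on opposite sides.

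The difference between the lines in the response to corin was tested as an interaction over all 8 libraries. Of the 10 members, 6 passed, 3 with the higher value in 1205Lu-R (TEAD1, CCN2 and AMOTL2) and 3 with the lower (YAP1, WWTR1 and LATS2), against 49.7% of all genes (22.6% higher and 27.1% lower). WWTR1 differed most, with a response 1.17 lower on the log2 scale in 1205Lu-R (interaction -1.17, SE 0.04, adjusted p = 1.00e-15). TEAD1, which fell in 451Lu-R and did not pass in 1205Lu-R, had an interaction of 0.61 (SE 0.05, adjusted p = 3.50e-09). CCN2 rose more in 1205Lu-R by 0.78 (SE 0.09, adjusted p = 1.72e-07), and the YAP1 response was lower there (-0.55, SE 0.08, adjusted p = 6.69e-06). For AMOTL2 the interaction was 0.54 (SE 0.10, adjusted p = 0.00014) and for LATS2 it was -0.67 (SE 0.10, adjusted p = 4.41e-06). TEAD3 (0.11, 95% interval -0.29 to 0.51, adjusted p = 0.682) and TEAD4 (-0.34, 95% interval -0.67 to -0.02, adjusted p = 0.0737) did not pass, and TEAD4 passed without the filter (adjusted p = 0.0298) and without 451Lu-R DMSO replicate 1 (-0.70, adjusted p = 0.0002). The TEAD3 interaction was -0.04 without 1205Lu-R DMSO replicate 1. For CCN1 no size is given because 451Lu-R held 2 counts in all. Of all genes that passed, 45.4% were higher in 1205Lu-R, and 64.0% were when scaled by library size alone, which moved the median of all genes from -0.01 to 0.20, but none of the members that passed changed its direction.

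With DMSO, 9 of the 10 members were higher in 1205Lu-R than in 451Lu-R and TEAD2 was lower, against 41.0% of all genes higher and 41.5% lower (82.5% in either direction). The median log2 difference of the members was 0.89, beside -0.01 for all genes, and 5 members were at least 2-fold higher (background 19.6%). CCN1 was at least 562-fold higher, computed against 3 counts in each of the 451Lu-R libraries. With no count in those libraries, CCN1 could only be called higher. AMOTL2 was 4.34-fold higher (log2 difference 2.12, SE 0.06, adjusted p = 4.77e-20), CCN2 3.36-fold (1.75, SE 0.07, adjusted p = 3.63e-18), TEAD4 3.22-fold (1.69, SE 0.10, adjusted p = 3.79e-14) and WWTR1 2.04-fold (1.03, SE 0.03, adjusted p = 1.89e-21). YAP1 (log2 difference 0.74), TEAD1 (0.51), LATS2 (0.49) and TEAD3 (0.34, adjusted p = 0.0467) were higher by smaller amounts, and TEAD2 was lower by 1.39-fold (-0.47, SE 0.10, adjusted p = 0.00015). The TEAD3 call did not hold with DESeq2 (adjusted p = 0.224), with library size alone (0.165), without the filter (0.0570), or without 451Lu-R DMSO replicate 1 (0.0703), 451Lu-R DMSO replicate 2 (0.118) or 1205Lu-R DMSO replicate 2 (0.333). The summed markers of undifferentiated melanoma were also higher in 1205Lu-R with DMSO, as given above. AXL, at 948 and 976 CPM there, is part of that sum and of the phenotype name of the line. It is also counted among the other YAP and TAZ target genes below.

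With corin, 7 of the 10 members were higher in 1205Lu-R, WWTR1 and LATS2 were lower and TEAD2 did not pass, against 39.0% of all genes higher and 40.2% lower (79.2% in either direction). The median log2 difference of the members was 0.80, beside -0.01 for all genes, and 5 members were at least 2-fold higher (background 18.6%). CCN1 held 8787 counts in the 1205Lu-R libraries and 2 counts in the 451Lu-R libraries, a ratio of 4643 with a 95% counting interval of 1285 to 38342. With so few counts in 451Lu-R, CCN1 could only be called higher. AMOTL2 was 6.38-fold higher (log2 difference 2.67, SE 0.07, adjusted p = 4.57e-17), CCN2 5.82-fold (2.54, SE 0.04, adjusted p = 1.60e-20), TEAD4 2.56-fold (1.36, SE 0.07, adjusted p = 6.00e-12) and TEAD1 2.19-fold (1.13, SE 0.04, adjusted p = 4.74e-15). The 2 coactivators lay close together across the lines, with log2 differences of 0.20 for YAP1 (adjusted p = 0.0083) and -0.12 for WWTR1 (adjusted p = 0.00061). YAP1 did not pass with DESeq2 (adjusted p = 0.0813), without 451Lu-R corin replicate 2 (0.117) or without 1205Lu-R corin replicate 1 (0.0694), and WWTR1 did not pass with library size alone (0.271). TEAD3 was 1.38-fold higher (adjusted p = 0.0023, and 0.0509 with DESeq2). LATS2 was 1.12-fold lower (-0.16, adjusted p = 0.0477) with overlapping groups, and lost the call in 7 of 11 alternatives, among them those without 451Lu-R corin replicate 1 (adjusted p = 0.380) and without 1205Lu-R corin replicate 2 (0.312). For TEAD2 the log2 difference was -0.33 (95% interval -0.81 to 0.15, adjusted p = 0.195). This comparison and the one with DMSO share libraries with the comparisons of corin with DMSO, so their values are not independent of those above.

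Per kb of exon, WWTR1 was the highest member in 451Lu-R with DMSO (34.9 ± 0.163 CPM per kb, SD, n = 2), followed by TEAD1 (19.4 ± 0.149), YAP1 (17.8 ± 1.23), CCN2 (11.7 ± 0.669), TEAD4 (9.06 ± 2.58), TEAD2 (8.68 ± 0.878), LATS2 (6.88 ± 0.0224), AMOTL2 (4.25 ± 0.118) and TEAD3 (2.91 ± 0.0900). Within that order TEAD4 and its neighbours CCN2 and TEAD2 did not differ beyond their spread. With corin in this line CCN2 (40.2 ± 0.555) and WWTR1 (40.0 ± 0.0793) were level at the top. In 1205Lu-R the order with DMSO was WWTR1 (66.4 ± 1.46), CCN1 (44.5 ± 3.67) and CCN2 (36.4 ± 1.25), and with corin it was CCN2 (250 ± 7.99), CCN1 (115 ± 0.467) and WWTR1 (39.1 ± 0.448), so the 2 secreted targets stood above the coactivators. The lowest members with corin in 1205Lu-R were TEAD3 (5.11 ± 0.115) and TEAD2 (1.36 ± 0.172).

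The proteins of the vestigial-like family compete with or replace YAP on TEAD, and of its 4 genes VGLL2, VGLL3 and VGLL4 were in the table. All 3 were called higher with corin in both lines, beside 41.3% of all genes in 451Lu-R and 40.4% in 1205Lu-R. VGLL2 and VGLL3 had few counts with DMSO and passed the filter on low counts through their corin libraries. With at most 1 count in a DMSO library, VGLL2 could only rise. The VGLL4 call in 1205Lu-R depended on the processing, as given below. VGLL3 had 4 and 1 counts with DMSO and 219 and 177 counts with corin in 451Lu-R, and 8 and 6 counts with DMSO and 108 and 102 counts with corin in 1205Lu-R. The rise from these few counts had a log2 fold change of 6.25 (95% interval 5.67 to 6.84, adjusted p = 5.82e-14) in 451Lu-R and 3.88 (3.30 to 4.47, adjusted p = 2.75e-11) in 1205Lu-R, and it was 7.38 in 451Lu-R without DMSO replicate 1. The interaction for VGLL3 was -2.40 (SE 0.67, adjusted p = 0.0049), and -3.56 without 451Lu-R DMSO replicate 1. VGLL2 had no count with DMSO and 24 and 18 counts with corin in 451Lu-R, which was at least 6.55-fold higher against 3 counts a library. In 1205Lu-R, VGLL2 had 1 and 0 counts with DMSO and 38 and 36 counts with corin, a ratio of 77.8 with a 95% counting interval of 13.5 to 3114. VGLL4, a repressor that blocks YAP binding to TEAD, rose 1.57-fold in 451Lu-R (log2 fold change 0.65, SE 0.06, adjusted p = 1.62e-08) from 42.1 and 40.2 CPM to 59.6 and 61.0 CPM. In 1205Lu-R it rose 1.19-fold (0.25, SE 0.09, adjusted p = 0.0129) from 26.2 and 23.6 CPM to 32.6 and 29.9 CPM, a call that did not hold with DESeq2 (adjusted p = 0.190), without the filter (0.0618), without DMSO replicate 2 (0.189) or without corin replicate 1 (0.110). VGLL4 overlaps ATG7 on the opposite strand, which had between 146 and 412 counts a library, and use of strand in the counting was not stated.

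The other YAP and TAZ target genes did not share 1 direction. Of 18 such genes, 15 were tested in 451Lu-R, 8 rose, 5 fell and 2 did not pass, beside 41.3% of all genes up and 38.6% down, with a median log2 fold change of 1.27 beside 0.03 for all genes. In 1205Lu-R all 18 were tested, 6 rose, 10 fell and 2 did not pass, beside 40.4% up and 37.8% down of all genes, with a median of -0.21. The share of the list that passed was near that of all genes in both lines. With a fold of at least 2 added, 8 rose and 2 fell in 451Lu-R (background 22.2% up and 13.3% down). By that rule 4 rose and 3 fell in 1205Lu-R (background 22.0% up and 9.8% down). The growth arrest gene GADD45A rose from 15.6 and 16.2 CPM to 118 and 107 CPM in 451Lu-R (a log2 difference of 2.93, adjusted p = 8.61e-18), and the transmembrane protein gene CRIM1 from 10.3 and 11 CPM to 74.8 and 70.1 CPM (2.87, adjusted p = 1.07e-16), but CRIM1 fell slightly in 1205Lu-R (-0.26, adjusted p = 2.24e-08). AXL, a receptor tyrosine kinase, had 2 counts with DMSO and 52 counts with corin in 451Lu-R, a ratio of 24.5 (95% counting interval 6.46 to 208), with both DMSO counts in replicate 1. In 1205Lu-R AXL fell from 948 and 976 CPM to 480 and 471 CPM (-1.09, adjusted p = 1.47e-19). RBMS3 (-1.30, adjusted p = 4.22e-06), TGFB2 (-1.05, adjusted p = 0.0076) and ASAP1 (-0.81, adjusted p = 6.29e-13) fell most in 451Lu-R, and TGFB2 did not pass with DESeq2 (0.102) or without corin replicate 2 (0.116). In 1205Lu-R, IGFBP3, which encodes a binding protein of insulin-like growth factors, rose from 71.5 and 73.9 CPM to 909 and 893 CPM (3.56, adjusted p = 5.25e-26). There ANKRD1, a common YAP readout, had 1 count with DMSO and 95 counts with corin, a ratio of 99.9 (95% counting interval 17.5 to 3986), and TGFB2 had 2 and 41 counts, a ratio of 21.6 (5.60 to 184). MYOF (-1.27, adjusted p = 5.27e-19) and FOXF2 (-1.27, adjusted p = 4.88e-10) fell in 1205Lu-R.

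The difference between lines for these 18 genes was lower in 1205Lu-R for 11, higher for 3 and did not pass for 4, beside 27.1% lower and 22.6% higher of all genes, with a median of -1.16 beside -0.01. With DMSO, 14 of 17 tested were higher in 1205Lu-R and 3 were lower (median 3.72), beside 41.0% and 41.5% of all genes, and with corin 14 of 18 were higher and 1 was lower (median 1.91), beside 39.0% and 40.2%. In 451Lu-R with DMSO, IGFBP3 and CCDC80 had no count and AXL had 2, so these genes could only be called higher in 1205Lu-R. TGFB2, with 2 counts in 1205Lu-R with DMSO, could only be called lower. With corin IGFBP3 had 2 counts in 451Lu-R and could only be called higher. The 1 lower with corin was ARHGEF17 (log2 difference -1.69, adjusted p = 7.33e-13), at 51.6 and 49.2 CPM in 451Lu-R and at 17.8 and 15.7 CPM in 1205Lu-R. MYOF, a membrane repair gene, was 8.25 higher on the log2 scale with DMSO (adjusted p = 1.97e-30) and 5.46 higher with corin (adjusted p = 1.25e-20).

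Among the 12 Hippo kinases and adaptors, 451Lu-R had 7 that rose and 5 that fell, and 1205Lu-R had 4 that rose, 6 that fell and 2 that did not pass, with medians of 0.55 and -0.18. Of all genes 79.9% passed in 451Lu-R (41.3% up, 38.6% down) and 78.3% in 1205Lu-R (40.4% up, 37.8% down). SAV1, the adaptor of STK3 and STK4, rose from 29.2 and 29.4 CPM to 83.9 and 80.0 CPM in 451Lu-R (a log2 difference of 1.59, adjusted p = 1.44e-14) and from 53.3 and 51.4 CPM to 101 and 104 CPM in 1205Lu-R (0.89, adjusted p = 2.48e-13). STK38L rose by 1.5 and 0.97 on the log2 scale (adjusted p = 7.01e-14 and 1.23e-12). MOB1B, a cofactor of LATS kinases, rose in 451Lu-R (1.04, adjusted p = 5.90e-14), and its paralog MOB1A fell in both lines (-0.82 and -1.18, adjusted p = 2.41e-13 and 5.00e-17). LATS1 fell in 451Lu-R from 38.0 and 33.3 CPM to 19.5 and 20.6 CPM (-0.74, adjusted p = 2.44e-07) and in 1205Lu-R from 29.5 and 31.0 CPM to 16.8 and 18.3 CPM (-0.85, adjusted p = 2.50e-08), whereas its paralog LATS2 rose in the first line and fell in the second. MAP4K4, a kinase that acts on LATS alongside STK3 and STK4, fell in 1205Lu-R from 957 and 952 CPM to 409 and 412 CPM (-1.29, adjusted p = 3.76e-21), and TAOK1, which acts above them, fell by 1.05 on the log2 scale (adjusted p = 4.44e-16). In the test between the lines 8 of the 12 had a lower response in 1205Lu-R, none had a higher one and 4 did not pass, beside 27.1% lower and 22.6% higher of all genes.

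Among the 14 upstream regulators, 13 were tested in 451Lu-R, where 9 rose and 4 fell (median 0.91), beside 79.9% of all genes that passed, and in 1205Lu-R 6 rose, 7 fell and 1 did not pass (median -0.13), beside 78.3%. WWC1, which encodes the scaffold KIBRA, rose in both lines, from 12.2 and 10.2 CPM to 40.5 and 40.8 CPM in 451Lu-R (a log2 difference of 1.96, adjusted p = 2.38e-13) and from 9.59 and 10.2 CPM to 34.0 and 34.9 CPM in 1205Lu-R (1.73, adjusted p = 7.32e-13). The giant cadherin gene FAT1 rose in 451Lu-R (1.75, adjusted p = 6.75e-21). FAT4 rose there from 0.734 and 0.207 CPM to 4.58 and 6.70 CPM (3.59, adjusted p = 8.48e-08), a value of 4.76 without DMSO replicate 1 and 3.0 without DMSO replicate 2. RASSF1 fell in both lines (-1.26 and -1.43, adjusted p = 1.30e-06 and 2.95e-11), as did NF2, which encodes merlin, by a small amount in 451Lu-R (-0.36, adjusted p = 8.43e-07) and from 162 and 172 CPM to 75.7 and 80.3 CPM in 1205Lu-R (-1.17, adjusted p = 3.87e-16). AJUBA, a LIM protein that restrains LATS, fell in 1205Lu-R from 36.6 and 36.6 CPM to 13.2 and 14.9 CPM (-1.44, adjusted p = 3.61e-12). Between the lines, 9 of the 14 had a lower response in 1205Lu-R, 2 had a higher one and 3 did not pass, beside 49.7% of all genes that passed (27.1% lower, 22.6% higher). For corin against DMSO, the naming rule also gave LIMD1 (-0.53 in 451Lu-R, adjusted p = 4.01e-07). The 1205Lu-R line also had rises of FAT4 (1.83, adjusted p = 2.01e-06) and DCHS1 (1.37, adjusted p = 6.19e-06).

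**Figure D4:**
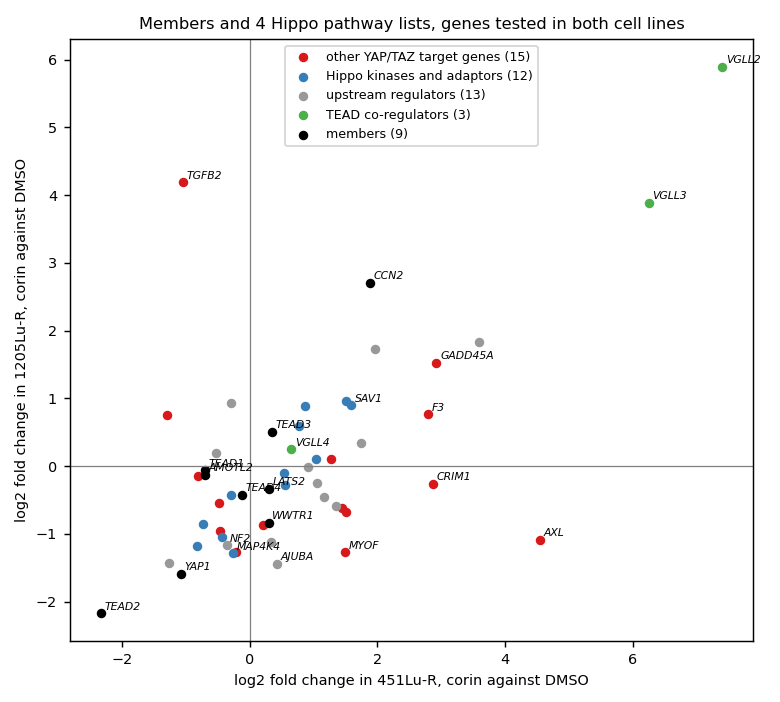
Log2 fold change with corin against DMSO in 451Lu-R (horizontal axis) and in 1205Lu-R (vertical axis) for the members and 4 lists of pathway genes tested in both lines (one point a gene, number of genes in the legend). CCN2, VGLL2 and VGLL3 lie in the upper right and TEAD2 and YAP1 in the lower left, and the fitted positions rest on 0 to 2 counts a library with DMSO for AXL in 451Lu-R, for TGFB2 in 1205Lu-R and for VGLL2 in both lines.

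For each member, the gene with the most similar course over the 8 libraries was sought among 15795 genes, by the root mean square difference of log2 CPM after each gene was centred on its own mean. For TEAD1 it was UPF1 (0.041), for TEAD2 ICAM3 (0.12), for TEAD3 TRIM35 (0.081), for TEAD4 TRIM56 (0.13), for YAP1 PTPN18 (0.074) and for WWTR1 UNC119B (0.065). For CCN2 it was CACNA2D3 (0.16), for AMOTL2 PRSS23 (0.15), for LATS2 SMPD1 (0.056) and for CCN1 TNFRSF6B (0.31). The difference was not scaled by how much a gene varied, so these values do not rank the members. No member was the nearest gene of another member.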

How the data were processed

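RNA-seq libraries of 451Lu-R and 1205Lu-R with DMSO or corin (2 a group, 8 in all) were analysed. Per the labels and methods, the authors trimmed reads with Trimmomatic and quantified them with Salmon against GENCODE release 32; versions are not given in the sources used here. The deposited values are estimated counts per gene, which were rounded to whole numbers. The deposited tables on the 8 PLX4032 libraries hold the authors' own comparisons (fold changes and p-values) and were not used.

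Names, coordinates and exon lengths came from GENCODE release 44 (GRCh38), which matched 34052 of 34228 genes. Comparisons were made with edgeR 4.0.16 (R 4.3.3): filterByExpr, TMM scaling, glmQLFit and glmQLFTest, with Benjamini-Hochberg adjustment over all genes tested. The 2 lines were fitted separately for corin against DMSO, and all 8 libraries together for the interaction. The counting intervals of ratios and the floor of 3 counts cover counting error only. The intervals of log2 differences came from the edgeR fit and include the spread between libraries. Calls were recomputed with DESeq2 1.42.0, RLE factors, library size alone, all 8 libraries in 1 fit, the replicate number as a block, other filters (none, or 1 CPM on average), and without each library in turn. The procedure was tested on simulated data in which few genes changed, as many up as down. That test does not cover scaling where most genes pass, as they did with corin.

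All members and all VGLL genes are named; from the other lists, genes were taken from the at most 3 that rose most and 3 that fell most in a comparison, among those with an adjusted p under 0.05 and a mean of at least 1 CPM in at least 1 group. The members and lists were chosen with earlier results of these data known.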

Additional observations from a re-analysis of the deposited data

Results flagged for a closer look

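The genes named here had a response to corin that differed between the 2 cell lines at an adjusted p under 0.05 in the interaction test (edgeR quasi-likelihood test with Benjamini-Hochberg adjustment over all genes tested). All values are log2 fold changes in 1205Lu-R minus those in 451Lu-R. Among the members, WWTR1 (-1.17), LATS2 (-0.67) and YAP1 (-0.55) had the lower response in 1205Lu-R, and CCN2 (0.78), TEAD1 (0.61) and AMOTL2 (0.54) the higher one. Among the other target genes, AXL (-5.68), CCDC80 (-4.77) and CRIM1 (-3.18) were lower in 1205Lu-R, and TGFB2 (5.21), RBMS3 (2.02) and ASAP1 (0.62) were higher. AXL and CCDC80 had at most 2 counts in 451Lu-R with DMSO and TGFB2 had 2 counts in 1205Lu-R with DMSO, so these 3 sizes depend on the prior count of the fit. The AXL value was -8.82 without 451Lu-R DMSO replicate 1 and -4.85 without DMSO replicate 2. The CCDC80 call was lost without 451Lu-R DMSO replicate 1 (adjusted p = 0.0790), DMSO replicate 2 (0.0645) or corin replicate 2 (0.0666), and the RBMS3 value was 2.69 without 1205Lu-R DMSO replicate 2. Among the kinases and adaptors, MAP4K4 (-1.07), MOB1B (-0.97) and STK38 (-0.87) were lower in 1205Lu-R. Among the upstream regulators, WTIP (-1.99), AJUBA (-1.91) and FAT4 (-1.79) were lower, and AMOT (1.19) and LIMD1 (0.68) were higher. The FAT4 call was lost without 451Lu-R DMSO replicate 2 (-1.21, adjusted p = 0.0997), and its value was -2.99 without DMSO replicate 1. The TEAD co-regulators VGLL3 (-2.40) and VGLL4 (-0.44) were lower in 1205Lu-R, and VGLL4 did not pass with scaling by library size alone (adjusted p = 0.0718).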

How the results depend on the processing

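Of 1672 recomputed single gene values, 1620 kept their direction and side of the threshold, 43 lost the call, 5 gained it and 4 changed direction, and of 580 recomputed counts of genes in a list, 566 stayed within 1.5 times. The 4 that changed direction were TEAD4 in 451Lu-R (from -0.37 to 0.21 with 1 library left out, the upper value without 451Lu-R DMSO replicate 1), TEAD1 in 1205Lu-R (0.012 with library size alone), and the interactions of CCN1 (from -2.73 to 1.28, the upper value without 451Lu-R corin replicate 1, which leaves that line at 0) and TEAD3 (from -0.039 to 0.25, the lower value without 1205Lu-R DMSO replicate 1). None of these had passed. Between the lines with corin, the number of members lower in 1205Lu-R was 2, and it was 1 with DESeq2, with RLE factors, with a filter at 1 CPM on average and with the replicate block, 0 with library size alone, and from 1 to 2 with 1 library left out. In that comparison the number of TEAD co-regulators higher was 1, and it was 0 with DESeq2 and from 0 to 1 with 1 library left out, and that of target genes lower was from 1 to 2. For the interaction, the number of TEAD co-regulators lower was 1 with library size alone in place of 2, and for the lines with DMSO the number higher was 1 with all 8 libraries in 1 fit in place of 0. Replicate numbers are shared by the groups, but same-numbered libraries did not deviate together (correlations from -0.03 to 0.04), so they were not treated as pairs. In the fit with the replicate block LATS2 between the lines with corin lost its call (log2 difference -0.15, adjusted p = 0.0513), and it was the only value named in the text to do so. Where leaving out 1 library left a group with 1, that library was assumed to vary like the others. The adjusted p in such a fit could be smaller than in the full fit, so a call kept there is a weak check. Depth limits CCN1 in 451Lu-R and VGLL2 with DMSO.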
